A study of Homo sapiens with 6 samples.

Results

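Proteasome and chaperone genes are described here across 6 ATAC-seq libraries of Jurkat, an established human T-cell leukaemia line. The 127 members were all protein-coding RefSeq genes, of 20037 on 24 chromosomes, whose symbols carry a proteasome prefix (PSMA, PSMB, PSMC, PSMD, PSME) or a chaperone prefix (HSPA, HSPB, HSPD, HSPE, HSPH, HSP90, DNAJA, DNAJB, DNAJC, CCT) followed by a digit. The HSP90 genes were kept although a letter follows that prefix, since their number is part of it. The prefixes gave 45 proteasome and 82 chaperone members in 15 families. Among them were PSMC3IP and PSME3IP1, named as interaction partners of a proteasome gene and not subunits, and the read-through genes HSPE1-MOB4 and DNAJC25-GNG10.

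ATAC-seq uses a transposase to insert adapters into accessible DNA, so that peaks of reads mark open chromatin. The simulated microgravity group (SMG 1 to SMG 3) and the normal gravity group (NG 1 to NG 3) had 3 libraries each, and the labels name no other agent or allele in either. Each library was made from nuclei of 50000 cells, lysed for 3 min and tagged for 30 min at 37 °C. Per the labels, the SMG nuclei, already taken out of their cells, were turned in a random positioning machine at 30 degrees per second for 30 min. The labels name no separate cultures for the libraries of a group, so a p-value covers no more than the spread of these libraries, and that spread may be technical. The SMG libraries held 42222, 42399 and 39624 peaks and the NG libraries 37782, 43713 and 40601. Read depth is unknown, since the lists give no counts. All 9 T cell markers examined had a gene-end peak in every library, and 0 of 15 B cell, myeloid and epithelial markers had one in any.

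The proteasome degrades proteins tagged with ubiquitin. Its core particle is a stack of rings built from alpha subunits (PSMA) around the catalytic beta subunits (PSMB). Its regulatory particle holds a ring of ATPases (PSMC) and non-ATPase subunits (most, not all, of the PSMD genes) that bind and unfold substrates. PSME genes encode other activators that dock on the core. Chaperones keep proteins folded: HSPA and HSPH proteins grip exposed stretches with the help of DNAJ co-chaperones, HSP90 proteins mature signalling clients, small heat shock proteins (HSPB) hold unfolded proteins, HSPD1 with HSPE1 forms the folding chamber of mitochondria and CCT subunits form that of the cytosol. Heat shock factor binds repeats of GAA in alternating orientation upstream of many inducible chaperones, and the unfolded protein response acts on endoplasmic reticulum chaperones through a bipartite element.

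The promoter sequences below come from RefSeq (GRCh38.p14, read 5′ to 3′ in the direction of the gene) and are shown because they carry those elements, or because the start lies inside the gene. Positions count bases from the gene start, with −1 just before it. A match is a description of letters and does not show binding. HSPA5, the main HSPA chaperone of the endoplasmic reticulum (chr9:125241371-125241429, minus strand), and HSP90B1, its HSP90 (chr12:103930196-103930359, plus strand), were the only members with the endoplasmic reticulum stress element (CCAAT and CCACG with any 9 bases between), in capitals on either strand.
HSPA5: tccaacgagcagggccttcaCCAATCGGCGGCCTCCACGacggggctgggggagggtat
HSP90B1: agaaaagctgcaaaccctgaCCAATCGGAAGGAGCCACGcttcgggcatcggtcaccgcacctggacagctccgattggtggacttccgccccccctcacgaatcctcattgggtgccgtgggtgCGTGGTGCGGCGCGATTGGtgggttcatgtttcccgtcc

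Runs of 3 heat shock units (GAA and TTC in turn, with any 2 bases between neighbours, in capitals) lay upstream of the start in 3 members. These were the constitutive chaperone HSPA8 (chr11:123062159-123062386, minus strand), its strictly inducible relative HSPA6 (chr1:161524446-161524498, plus strand) and the co-chaperone DNAJB6 (chr7:157336853-157336905, plus strand).
HSPA8: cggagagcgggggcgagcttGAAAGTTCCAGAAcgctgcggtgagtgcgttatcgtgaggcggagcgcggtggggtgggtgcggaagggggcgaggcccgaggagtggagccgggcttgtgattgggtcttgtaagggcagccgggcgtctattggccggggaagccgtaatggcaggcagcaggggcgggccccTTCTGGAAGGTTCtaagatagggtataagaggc
HSPA6: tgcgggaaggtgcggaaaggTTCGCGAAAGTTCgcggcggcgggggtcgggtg
DNAJB6: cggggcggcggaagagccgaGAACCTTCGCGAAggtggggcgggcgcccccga

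The inducible pair HSPA1A (chr6:31815417-31815464, plus strand) and HSPA1B (chr6:31827613-31827660, plus strand) is shown because the copies behaved differently in the peak lists. Capitals mark 2 heat shock units (GAANNTTC). Over the 300 bases around the start, 277 of 299 aligned bases of the pair were identical (92.6%).
HSPA1A: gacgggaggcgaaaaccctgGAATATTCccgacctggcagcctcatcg
HSPA1B: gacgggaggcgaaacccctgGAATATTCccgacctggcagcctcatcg

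For the proteasome cap, 4 promoters with the ETS core CCGGAAG close to the start are shown, with the core or its reverse complement in capitals. They belong to PSMD6 (chr3:64023505-64023551, minus strand), PSMD8 (chr19:38374534-38374570, plus strand), PSMD12 (chr17:67366578-67366605, minus strand) and PSMD13 (chr11:236944-236975, plus strand).
PSMD6: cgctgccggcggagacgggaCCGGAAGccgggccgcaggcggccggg
PSMD8: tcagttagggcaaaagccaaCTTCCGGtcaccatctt
PSMD12: ctgagcgggtgcgcgggcaaCTTCCGGt
PSMD13: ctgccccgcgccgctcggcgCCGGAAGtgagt

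The last 3 sequences are the 80 bases before starts that lie inside the annotated gene, of PSMA6 (chr14:35292237-35292316, plus strand), DNAJB1 (chr19:14529272-14529351, minus strand) and HSPA2 (chr14:64540661-64540740, plus strand). They carry no capitals.
PSMA6: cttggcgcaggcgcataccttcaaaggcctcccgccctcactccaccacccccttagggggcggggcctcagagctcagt
DNAJB1: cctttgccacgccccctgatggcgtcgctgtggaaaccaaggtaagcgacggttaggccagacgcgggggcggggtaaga
HSPA2: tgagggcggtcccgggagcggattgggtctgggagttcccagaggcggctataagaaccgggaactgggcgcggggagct

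A gene was counted as open in a library if a peak overlapped 1 kb to either side of either gene end. Of the 127 members, 97 were open in all 6 libraries (76.4%), where 46.6% of all protein-coding genes were. A further 22 members were open in 0 libraries, 17.3% against 39.7% of all protein-coding genes, and 8 were open in 1 to 5 libraries, 6.3% against 13.7%. The families differed in these counts. All PSMD (14 of 14), PSMC (7 of 7) and PSME (5 of 5) members were open in every library, PSMC3IP and PSME3IP1 included. At PSMC1 a peak lay within 1 kb of the start in 5 libraries only. Of the core particle, 6 of 8 PSMA and 7 of 11 PSMB members were open in all 6 libraries. All 7 PSMA members with a known start had a peak within 1 kb of it in all 6. Among chaperones the 3 HSP90 genes, HSPD1, HSPE1 and HSPH1 were open in every library, and 8 of 9 CCT and 22 of 29 DNAJC members were. At DNAJC8 and DNAJC11, counted among the 22, a peak lay within 1 kb of the start in 4 libraries only. The counts were 9 of 14 for HSPA, 3 of 4 for DNAJA, 7 of 12 for DNAJB and 2 of 7 for HSPB.

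As a whole, 39 of 45 proteasome members (86.7%) and 58 of 82 chaperone members (70.7%) were open in all 6 libraries. The share of proteasome members exceeded that of chaperone members in each library, by 15.7, 14.3 and 18.9 percentage points in SMG 1, SMG 2 and SMG 3, and by 14.5, 16.5 and 14.5 in NG 1, NG 2 and NG 3. This is a description of families in 1 cell line, with no test, because genes are not replicates.

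**Figure D1:**
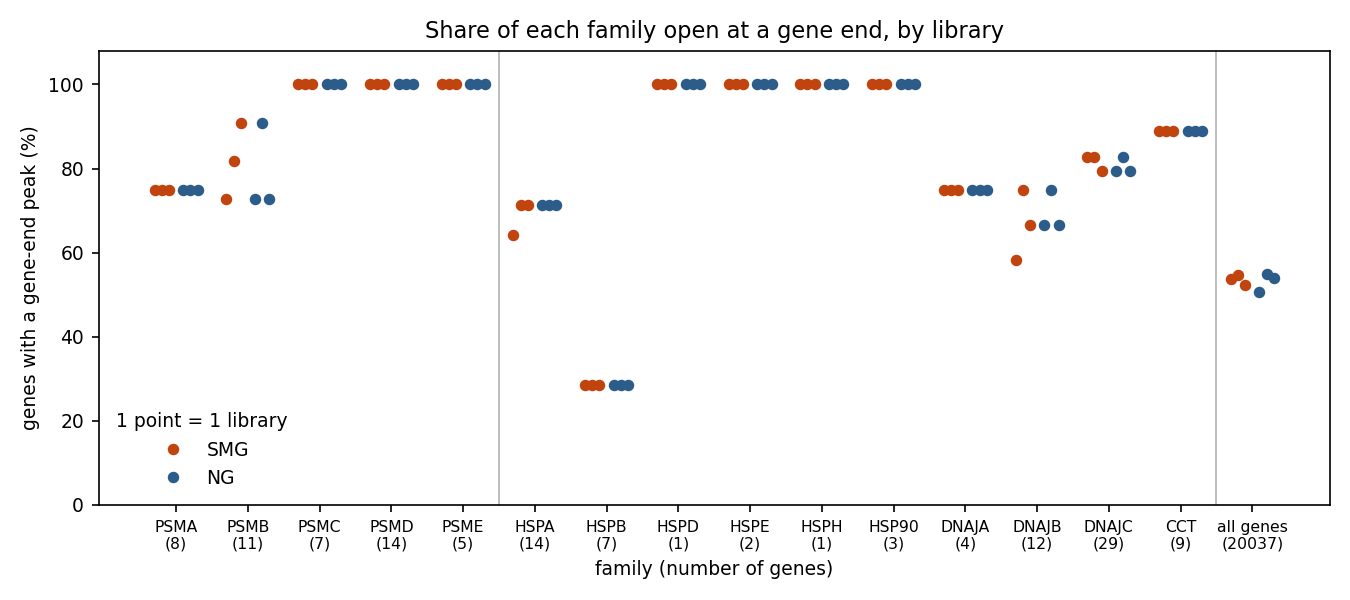
Share of genes with a gene-end peak (vertical axis, %) in each family (horizontal axis, number of genes in brackets), 1 point per library, SMG libraries left and NG libraries right in each family, and all protein-coding genes at the far right. The PSMC, PSMD, PSME, HSPD, HSPE, HSPH and HSP90 families stand at 100% in every library, and HSPB stands at 28.6% in every library.

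Among open members the chaperones had the higher median peak rank. Peak strength is given as the percentile of a gene's best gene-end peak among all peaks of its library, ranked by the authors' −log10 q-value, which is the peak's own value from their caller. A percentile ranks peaks inside 1 list and does not measure a change between lists. Averaged over libraries, the 39 proteasome members open in all 6 had a median percentile of 79.8, close to the 81.0 of all protein-coding genes open in all 6. The 58 chaperone members had a median of 92.8. By family the medians overlapped, from 67.6 (PSMB) to 89.0 (PSMD) for the proteasome and from 69.3 (DNAJA) to 99.0 (HSPD and HSPE) for chaperones. Peaks with a mean percentile of 90 or more were found at 35 of these 58 chaperone members (60.3%) and at 13 of the 39 proteasome members (33.3%), against 29.5% of all protein-coding genes open in all 6. Median peak widths were 815.5 bp for proteasome and 908.5 bp for chaperone members.

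**Figure D2:**
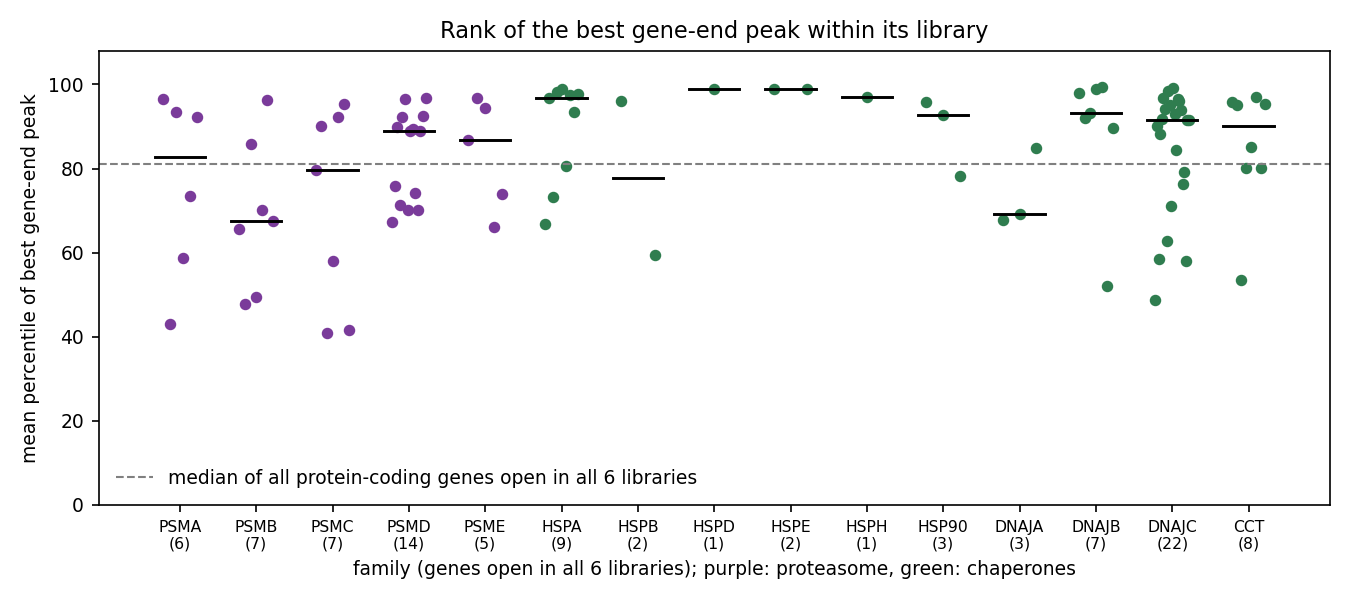
Mean percentile over the 6 libraries of the best gene-end peak (vertical axis) for each gene open in all 6 libraries, by family (horizontal axis, number of genes in brackets). Each point is a gene, bars are family medians and the dashed line is the median of all protein-coding genes open in all 6 libraries (81.0). The HSPA median lies at 96.7 and the PSMB median at 67.6.

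In the core particle the alpha subunit gene PSMA5 ranked highest, at 97.5, 97.9 and 92.4 in the SMG libraries and 96.2, 97.6 and 96.9 in the NG libraries. PSMA1 ranked lowest of its family, with a mean percentile of 43.0, but that value belongs to the far upstream end of its annotation, where the peak overlapped an end of PDE3B. The start given for PSMA1 by RefSeq's promoter table lies 123276 bp inside the gene, and the peak there had percentiles of 93.0, 94.1 and 94.8 in the SMG libraries and 90.6, 95.8 and 94.7 in the NG libraries. Of the catalytic subunits, PSMB5 had a mean percentile of 85.9. Among beta subunits PSMB1, which shared its peak with an end of TBP, was highest at 96.2 and PSMB4 lowest at 47.9.

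The immunoproteasome replaces the catalytic beta subunits by PSMB8, PSMB9 and PSMB10 in lymphoid cells and after interferon, and PSME1 and PSME2 form its usual activator. PSMB10 was open in all 6 libraries, at percentiles of 60.9, 71.3 and 42.5 in the SMG libraries and 8.5, 65.6 and 47.6 in the NG libraries, with NG 1 the lowest. Its 6 best peaks had no base in common and their summits were spread over 1124 bp, so these values are not a series for 1 region, and the same held for the 4 best peaks of PSMB8, spread over 1055 bp. PSMB8 had a peak in 3 SMG libraries, at 40.0, 16.4 and 11.1, and in 1 NG library, NG 2, at 24.2. PSMB9 had one in SMG 3 (25.9) and NG 2 (16.4). Both genes lie in the class II region of chromosome 6 (PSMB8 at 32840717 to 32844679 and PSMB9 at 32854192 to 32859851, hg38). The activator genes were open throughout, PSME1 at a mean percentile of 86.9 and PSME2 at 96.8. The median summit for PSME2 lay at −734 bp from its start, in a peak that also covered an end of RNF31, a ubiquitin ligase subunit.

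In the regulatory particle the ATPase gene PSMC4 led its family, with a mean percentile of 95.4, and its 6 summits lay within 26 bp of each other. PSMC1 was lowest at 40.9, and its best peak was not at the same gene end in every library. PSMC2 was close to it, at a mean of 41.6. Of all genes with the PSMD prefix, which do not all encode subunits, PSMD10 ranked highest at 96.8 (best peaks at 108091167 to 108092299 on chromosome X). PSMD4, a ubiquitin receptor, was lowest at 67.4. Among the activators PSME3 was lowest, at 66.1.

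The ranks of endoplasmic reticulum chaperones and their partners were spread widely. DNAJB9, a co-chaperone of HSPA5, ranked highest of all 97 members open throughout, at 99.2, 99.8 and 99.6 in the SMG libraries and 99.6, 99.4 and 99.3 in the NG libraries (best peaks at 108569097 to 108570508 on chromosome 7). Its peak also covered an end of THAP5, and that of DNAJB11 an end of TBCCD1. DNAJB11 and DNAJC3, further co-chaperones of this compartment, had mean percentiles of 98.8 and 98.5. HSPA5 and HSP90B1, with the elements printed above, stood at 97.6 and 95.9, and their median summits lay at −176.5 and −235.5 bp from the start. Lower in the lists stood HYOU1, a chaperone of this compartment outside the prefixes, at a mean of 78.3, and SIL1, a nucleotide exchange factor of HSPA5, at 68.5. DNAJB12, a membrane co-chaperone, had a mean of 78.3 at its start, and DNAJB14, its relative, had a peak in 3 libraries only. HSPA13, another HSPA-type protein of the secretory pathway, was highest in its family at 98.9. DNAJC27 led the DNAJC family at 99.0 and DNAJC11 was its lowest, at 48.7. That value joins peaks at different gene ends, and at its start DNAJC11 had a peak in 4 libraries, at a mean of 26.0.

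The mitochondrial chaperones HSPD1 and HSPE1 share a head-to-head promoter. A single peak covered it in each library (197499242 to 197500739 on chromosome 2), at 99.3, 99.1 and 98.1 in the SMG libraries and 98.7, 99.4 and 99.1 in the NG libraries. The 6 summits lay within 8 bp of each other, against a median spread of 170 bp over the 97 members open throughout and 185 bp over all protein-coding genes open throughout. HSPE1-MOB4 starts in the same peak, so these 3 members are a single observation, as are DNAJC25 and DNAJC25-GNG10. HSPA9, the mitochondrial HSPA protein, had a mean percentile of 93.4.

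The stress-inducible genes did not form a single class. HSPH1, a nucleotide exchange factor of HSPA proteins, was open throughout at a mean percentile of 96.9, and HSP90AA1 at 92.7, in a peak that also covered an end of WDR20. Its constitutive relative HSP90AB1 stood at 78.2, in a peak with no other gene end. HSPB1 was open throughout at 59.3, and the median summit of its best peaks lay 1513.5 bp inside the gene, near the far end. Those best peaks had no base common to all 6 libraries. A peak within 1 kb of the HSPB1 start was present in all 6 libraries, at a mean percentile of 53.3. HSPA6 was open throughout at 66.8, with a median summit at −609 bp from the start in a peak that covered an end of FCGR2A. HSPA1B had a weak peak in 5 libraries, at 16.4 and 18.3 in SMG 2 and SMG 3 and at 33.8, 9.0 and 26.6 in the NG libraries, and HSPA1A had none in any library. Because the sequences of the pair are nearly identical and how the authors placed reads that match both is not stated in the labels, both values are uncertain. HSPA8, the constitutive member of the group, stood at 96.7, 97.8 and 98.3 in the SMG libraries and 98.6, 99.0 and 98.6 in the NG libraries.

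CCT8 led the CCT family at a mean percentile of 96.9, and CCT6B, known as a testis form, was lowest at 53.5. TCP1, the CCT subunit whose symbol lacks the prefix, stood at 97.0. In the DNAJA family, DNAJA1, a co-chaperone of HSPA8, stood at 84.9 and DNAJA3, a mitochondrial form, at 67.7. DNAJB6 was the lowest DNAJB member open throughout, at 52.0. HSPB6 was the higher of the 2 open HSPB genes at 96.1, with its median summit at −1065.5 bp from the start in a peak that covered an end of PROSER3.

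Peaks at the members marked starts rather than far ends. A start was given by RefSeq's promoter table for 114 of the 127 members. Missing from it were PSMD4, PSMB1, CCT6A, DNAJC5B, PSMB7, HSPA14, DNAJC1, DNAJC24, HSPB2, DNAJC22, PSMB6, HSPA12B and PSMA7. A peak within 1 kb of the start was present in all 6 libraries at 90 of the 114 (78.9%), where 47.5% of all protein-coding genes with a start had one. At the far end 9 of the 114 (7.89%) had a peak in all 6 libraries, against 4.93% of all protein-coding genes with a start. Of the 90 members open throughout with a known start, 77 (85.6%) had the median summit of the best peak within 500 bp of it, against 80.1% of all such genes. The median distance was 96 bp for proteasome members and 157 bp for chaperone members. Another protein-coding gene end lay in the best peak of 10 of 39 proteasome members (25.6%) and 24 of 58 chaperone members (41.4%), against 28.5% of all protein-coding genes open throughout. Such a peak cannot be assigned to either gene alone. The best peaks of 11 members had no base common to the libraries that held one, so their mean percentiles join different peaks. Of these, 9 were open in all 6 libraries (PSMB2, PSMB4, PSMB10, PSMC1, PSMC2, HSPB1, DNAJB12, DNAJC8 and DNAJC11), and PSMB8 and DNAJC22 were open in 4.

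**Figure D3:**
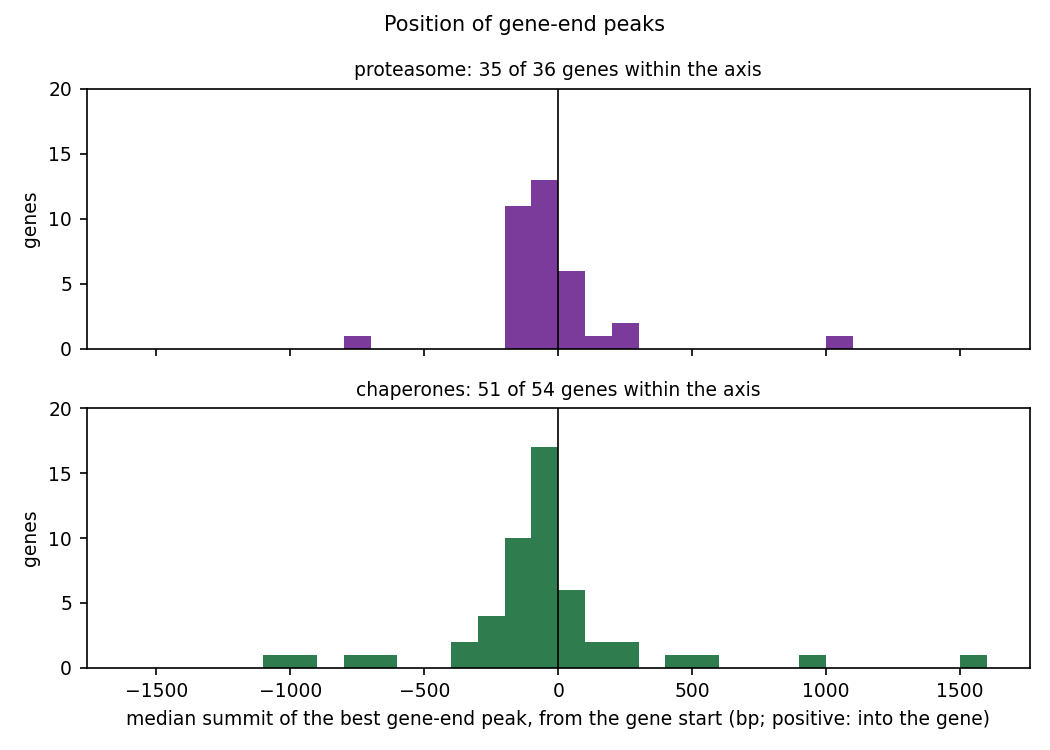
Median summit of the best gene-end peak relative to the gene start (horizontal axis, bp, positive into the gene), as the number of genes per 100 bp (vertical axis), for proteasome members above and chaperone members below. Drawn are 35 of 36 and 51 of 54 genes open in all 6 libraries with a known start, and most lie just before the start.

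Of the 22 members without a gene-end peak, 3 had a strong peak at a start inside the gene. PSMA6, an alpha subunit, has a start 13759 bp into its annotated span, and the peak there had percentiles of 89.5, 89.7 and 88.0 in the SMG libraries and 86.8, 96.6 and 92.2 in the NG libraries. For DNAJB1, the main inducible co-chaperone of HSPA1A, the start lay 31120 bp inside, and the peak had percentiles of 97.8, 96.5 and 97.4 in the SMG libraries and 99.1, 99.1 and 98.6 in the NG libraries. A second peak lay 10438 to 11042 bp farther into DNAJB1 in all 6 libraries, at percentiles of 51.7 to 76.6. HSPA2, known from spermatogenesis, had a start 4836 bp inside, with percentiles of 93.1, 94.6 and 89.5 in the SMG libraries and 94.8, 96.3 and 93.1 in the NG libraries. These 3 genes were missed because only gene ends were searched. PSMA7 had a peak inside the gene in all 6 libraries, 1396 to 2067 bp from its upper end, at percentiles of 26.2 to 61.1.

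The other 18 had no gene-end peak, and the 15 of them with a start in the table had none within 1 kb of it. They included PSMB11, the beta subunit of the thymoproteasome of thymic epithelium, and HSPA1L, HSPA1A and HSPA12B. Also among them were the small heat shock genes HSPB2, HSPB3, HSPB7, HSPB8 and HSPB9, several of them known from muscle, heart or testis. The co-chaperone genes were DNAJA4, DNAJB7, DNAJB8, DNAJC4, DNAJC5B, DNAJC5G, DNAJC6 (auxilin, which uncoats clathrin vesicles) and DNAJC12, and the last was CCT8L2. DNAJC5B had a peak inside the gene in 5 libraries, at percentiles of 18.2 to 60.2. HSPB8 was the most isolated, with its nearest peak 218751 to 470837 bp away. A missing peak shows that none was called and does not show closed chromatin.

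The rule depends on the window, so members near its limit are given by the median distance of the nearest peak from a gene end. Just inside were HSPA12A (657.5 bp), HSPB6 (739.5 bp), DNAJC22 (826 bp) and DNAJB14 (850 bp). Just outside were PSMA7 (1573.5 bp), PSMA6 (1951 bp), DNAJB7 (2267.5 bp) and HSPA2 (2446 bp).

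The comparison of conditions asked whether simulated microgravity altered which of these genes were open. The counts of open members overlapped between the groups. The members open were 100, 104 and 103 in SMG 1, SMG 2 and SMG 3 and 101, 105 and 101 in NG 1, NG 2 and NG 3. The share was 80.6% ± 1.64 in SMG libraries and 80.6% ± 1.82 in NG libraries (SD, n = 3 each), a difference of 0 percentage points (exact permutation p = 1, two-sided). Over all protein-coding genes the shares were 53.6% ± 1.24 in SMG libraries and 53.2% ± 2.27 in NG libraries (exact permutation p = 0.9, two-sided, n = 3 each). With 3 libraries a group the smallest p this test allows is 0.1, so it could not pass 0.05 for any difference. In a pool of nuclei, fewer nuclei with an open site and weaker opening in each cannot be told apart.

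Proteasome members stood at 91.1% ± 2.22 in SMG libraries and 90.4% ± 2.57 in NG libraries, a difference of 0.741 percentage points (two-sided exact permutation test, p = 1, SD over n = 3 each). Chaperone members stood at 74.8% ± 1.86 in SMG libraries and 75.2% ± 1.41 in NG libraries, a difference of −0.407 (exact permutation p = 1, two-sided, n = 3 each). Both differences were smaller than the SD of either group. The proteasome difference changed sign without SMG 3 (−0.370), and the chaperone difference changed sign without SMG 1 or without NG 2 (0.407 in each case).

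Peaks in all 3 libraries of a group with none in the opposite group were found at 0 of the 127 members in either direction, where 0.0998% of protein-coding genes were SMG-only and 0.0998% NG-only. Without NG 2 the count was 2. By at least 2 libraries, PSMB8 and DNAJC22 had more SMG than NG libraries (3 against 1 for both), which is 1.57% of members and 0.948% of all protein-coding genes. No member had 2 more NG than SMG libraries, against 0.784% of all protein-coding genes. DNAJC22 stood at 35.7, 46.4 and 31.9 in the SMG libraries and at 44.2 in NG 2, the NG library with the most peaks. NG 1, without a peak at either gene, had the fewest peaks of all 6 libraries. NG 3, also without a peak at either, had 40601 peaks, and SMG 3, with a peak at both, had 39624. The part of depth in these calls was not tested.

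The other 6 members open in some libraries were split between the groups. PSMB6, the constitutive catalytic subunit that PSMB9 replaces, lacked a peak in SMG 1 and had percentiles of 16.4 and 66.9 in SMG 2 and SMG 3 and of 37.9, 31.4 and 34.4 in the NG libraries. DNAJC5, a co-chaperone of synaptic vesicles, lacked one in SMG 3 and stood at 38.0 and 38.7 in SMG 1 and SMG 2 and at 58.3, 55.3 and 29.3 in the NG libraries. DNAJB13, an axonemal protein, had peaks in SMG 2, SMG 3, NG 1 and NG 2, at its far end. DNAJB14 had peaks in SMG 2 (39.7), NG 2 (27.5) and NG 3 (2.42). PSMB9 and HSPA1B are given above. NG 2 had a peak at all 8 of these genes.

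**Figure D4:**
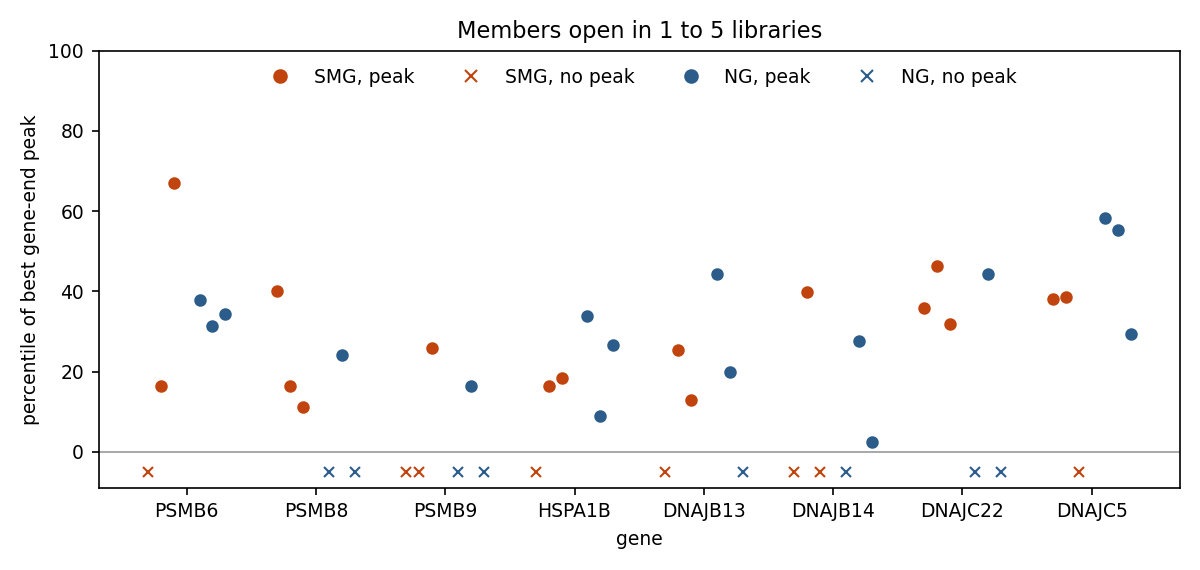
Percentile of the best gene-end peak (vertical axis) in each library at the 8 members open in 1 to 5 libraries (horizontal axis), SMG libraries left and NG libraries right for each gene, with a cross below 0 where no peak was called. Most points lie below 50, and PSMB8 and DNAJC22 have 3 SMG peaks and 1 NG peak each.

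Motifs were searched in the 300 bases from 250 before to 50 after the start, on both strands, in 40 proteasome and 74 chaperone promoters, with 15843 promoters of protein-coding genes as background. The ETS core CCGGAAG was held by 13 of 40 proteasome promoters (32.5%). By family these were 1 of 7 PSMA, 0 of 8 PSMB, 4 of 7 PSMC (PSMC3IP among them), 7 of 13 PSMD and 1 of 5 PSME promoters. Of the chaperone promoters 13 of 74 held the ETS core (17.6%), with 8 of 25 DNAJC (32.0%), 2 of 4 DNAJA, 2 of 12 DNAJB and 1 of 8 CCT promoters. DNAJC25 and DNAJC25-GNG10, which share a start, are both counted there for the same match. It was held by 14.2% of all promoters and by 23.5% of promoters whose start was open in all 6 libraries. The antioxidant response core TGACNNNGC, which NFE2L1 binds with its partners, was held by 11 of 40 proteasome promoters (27.5%), 11 of 74 chaperone promoters (14.9%), 14.3% of all promoters and 15.7% of those with a start open in all 6 libraries. Pairs of heat shock units (GAANNTTC or TTCNNGAA, which also lie within each run of 3) were held by 16 of 74 chaperone promoters (21.6%) and 3 of 40 proteasome promoters (7.5%). They were held by 11.4% of all promoters and 9.86% of those with a start open in all 6 libraries. Among chaperones, 6 of 12 HSPA and 4 of 6 HSPB promoters held a pair, but only 1 of 25 DNAJC and 0 of 3 HSP90 promoters did. The HSPA1L and HSPA1A promoters overlap and are counted for the same bases, and HSPA1B is the near-identical copy of HSPA1A. DNAJB stood at 2 of 12, CCT at 2 of 8 and DNAJA at 1 of 4.

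Runs of 3 units were held by 4 chaperone promoters (5.41%), 0 of 40 proteasome promoters, 0.366% of all promoters and 0.346% of those with a start open in all 6 libraries. The fourth, besides those printed, was DNAJA1, where the run lies just after the start. The 4 genes were all open in every library, at mean percentiles of 98.2 for HSPA8, 84.9 for DNAJA1, 66.8 for HSPA6 and 52.0 for DNAJB6. Over all protein-coding genes the run did not go with open starts. Of the 58 promoters that held it, 26 had a start open in all 6 libraries and 26 a start open in none. The endoplasmic reticulum stress element was held by 2 chaperone promoters and by 19 of all 15843. The CCAAT box (CCAAT, which overlaps that element) was held by 20 of 40 proteasome promoters (50%), 30 of 74 chaperone promoters (40.5%), 36.4% of all promoters and 40.4% of those with a start open in all 6 libraries. SP1 boxes (GGGCGG) were held by 67.5% of proteasome, 66.2% of chaperone and 58.5% of all promoters, and by 72.4% of those with a start open in all 6 libraries, which is above both member sets. The CRE TGACGTCA was held by 1 member, DNAJC27, and the palindromic NRF1 core by DNAJB6, PSMA4 and DNAJC5. These shares are descriptions with no test, and members that share promoter bases are each counted.

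**Figure D5:**
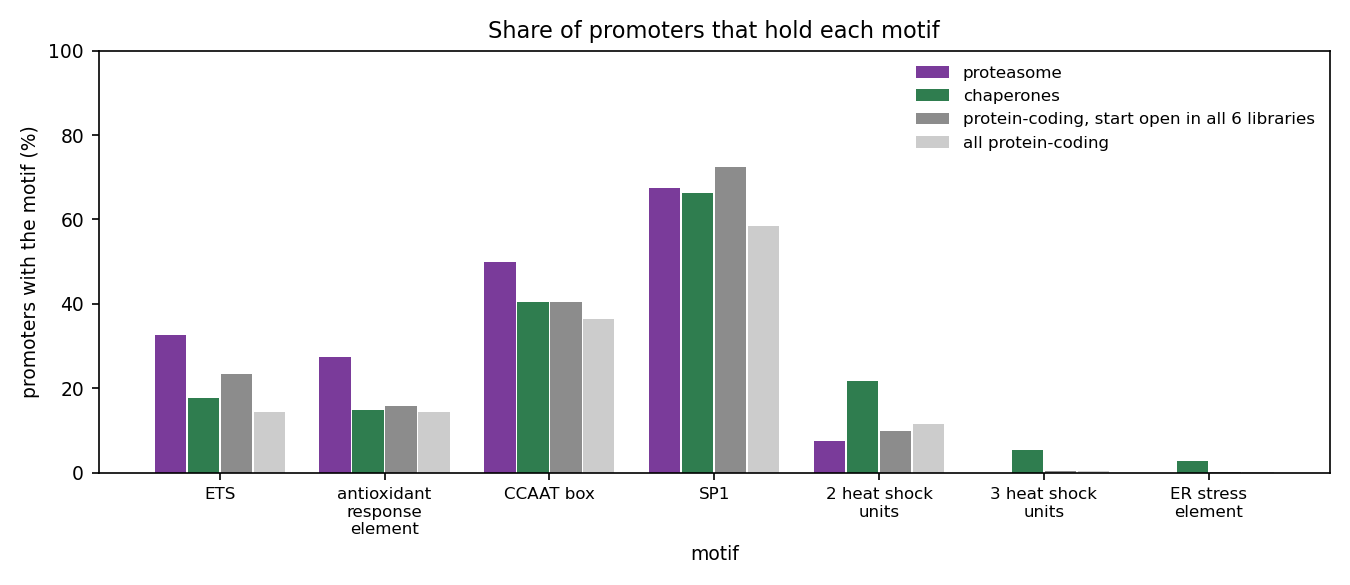
Share of promoters that hold each motif (vertical axis, %) for proteasome members, chaperone members, protein-coding genes whose start was open in all 6 libraries and all protein-coding genes. The ETS core stands at 32.5% in proteasome promoters and the pair of heat shock units at 21.6% in chaperone promoters.

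Other genes of the same pathways, from 3 lists, were examined alongside. Of 17 assembly factors, partners and ubiquitin genes of the proteasome, 10 were open in all 6 libraries (58.8%), among them UCHL5, a deubiquitinase of the cap, at a mean percentile of 97.9, and ADRM1, a ubiquitin receptor, at 88.8. PSMG4, an assembly chaperone of the core, had no gene-end peak, though a peak lay within 1 kb of its start in all 6 libraries. Of 9 stress transcription factors, 7 were open throughout (77.8%), among them NFE2L1, which induces proteasome genes, at 96.6, HSF2 at 90.7 and XBP1 at 47.6. HSF1, the main heat shock factor, had a peak in 1 library, SMG 1, at a percentile of 21.0. Of 39 other chaperones and co-chaperones, 30 were open throughout (76.9%), among them STIP1, which links HSPA and HSP90 proteins, at 97.8. TRAP1, the mitochondrial HSP90, was open in 2 SMG libraries and 1 NG library, at a mean of 9.86. Over the 65 genes, 47 were open in all 6 libraries (72.3%), 8 in none and 0 in all of 1 group alone, beside the 46.6% and 39.7% of all protein-coding genes open in all 6 and in 0 libraries.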

How the data were processed

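Members and lists were chosen with earlier results of these data known. The authors deposited 1 peak list per library. The submitters' processing notes list MACS2, Bowtie, BWA, SAMtools and FastQC, with hg38 as build, without versions or settings. Each deposited peak has a score, a fold enrichment (a linear ratio) and −log10 p-value and −log10 q-value, as the authors' caller wrote them. The deposited peak names of SMG 3 carry the word "normalized", whose meaning is not given. Peaks were called per library, and read depth is unknown.

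Gene ends came from RefSeq's GRCh38.p14 gene table. A gene was open where a peak overlapped by at least 1 bp the window of 1 kb to either side of an end. Group shares were compared by a two-sided exact permutation test over 20 arrangements of 3 against 3 libraries. Same-numbered SMG and NG libraries had correlations of −0.00136, 0.0229 and −0.0289 over the 2740 genes open in 1 to 5 libraries. Differently numbered ones had −0.0384 to 0.0388. The same-numbered values lay within the range of the others. Because genes with the same call in every library were left out, these values cannot decide whether libraries were prepared in pairs. The labels do not say that the numbers pair libraries, so the main test had no block. The scripts were tested on simulated data. Python 3.11.15, numpy 2.4.6, pandas 2.3.3 and scipy 1.17.1 were used. Named genes were the highest and lowest of each family among members open in all 6 libraries, all members open in fewer, the immunoproteasome and activator genes, and the main stress-inducible, endoplasmic reticulum and mitochondrial chaperones. PSMC2, HSPA8, HSPA6, HSP90AB1, DNAJA1, PSMB5, DNAJB12 and the genes named from the further lists or for a motif were chosen after their values were seen.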

Additional observations from a re-analysis of the deposited data

How the results depend on the processing

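Over 51 alternative fits of the difference between SMG and NG libraries, 0 had an exact permutation p under 0.05 and the lowest was 0.4, in a design whose smallest p is 0.1. The proteasome difference was −0.370 percentage points without SMG 3, and −0.370 to 2.22 over single libraries left out. The chaperone difference was 0.407 with the same number of peaks in each library, without SMG 1 and without NG 2, and −1.42 to 0.407 over libraries left out. For all members the range was −0.656 to 1.05. The cause was not tested. With the replicate number as a block, the differences were 0 for all members, 0.741 for proteasome and −0.407 for chaperone members (exact sign-flip p = 1 each, smallest possible 0.25). Members open in all of 1 group alone numbered 1 with a 3 kb window (HSPB9, NG only) and 0 to 2 over libraries left out, the 2 being PSMB8 and DNAJC22 without NG 2. The excess of proteasome over chaperone members was 13.5 percentage points at a −log10 q-value of at least 5, and 15.1 to 16.0 over libraries left out. Members open in every library, reported as 97, numbered 90 with a 500 bp window, with the gene start only and at a −log10 q-value of at least 5, 102 with a 3 kb window, and 97 to 99 over libraries left out. Members open in none, reported as 22, numbered 16 with a 3 kb window and with the gene start only, 23 at most, and 22 over libraries left out. Of 239 family counts under alternatives, 37 differed from the reported count, and 3 by more than 1.5 times, HSPB to 1 with a 500 bp window or with the summit inside the window and HSPE to 1 without read-through genes. The counts ran over 5 to 8 for PSMA and PSMB, 5 to 7 for PSMC, 13 to 14 for PSMD, 4 to 5 for PSME, 8 to 10 for HSPA, 6 to 9 for DNAJB, 18 to 23 for DNAJC and 7 to 8 for CCT. The start of the promoter table and the removal of PSMC3IP and PSME3IP1 were added after seeing the data. Peak lists without read counts limit what a missing peak can show.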

Other observations

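Promoter composition went with the calls. The 90 members with a start open in all 6 libraries had a median GC content of 63.3% and a median ratio of observed to expected CpG of 0.853, and the 16 with a start open in no library had 58.5% and 0.422. Over all protein-coding genes the values were 65.0% and 0.857 for starts open in all 6 libraries and 56.3% and 0.373 for starts open in none. This is a description over promoters of 300 bases, with no test.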
